A study of Mus musculus with 96 samples.

Results

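Excitatory neurons of the hippocampus are set apart by a small group of transcription factors and by the transporter that loads glutamate into synaptic vesicles. Of 9 such genes followed here, Prox1 encodes the homeodomain factor that marks granule cells of the dentate gyrus, and Neurod1, Neurod2 and Neurod6 encode basic helix-loop-helix factors that drive neuronal differentiation. Tbr1, Bcl11b (also known as Ctip2), Zbtb20 and Mef2c encode factors of projection neuron fate, hippocampal patterning and activity-dependent gene expression, and Slc17a7 encodes the vesicular glutamate transporter VGLUT1. The members were all peaks whose deposited gene symbol was one of these 9 names, which gave 19 of 22815 peaks. Of the 9 genes, 8 had at least 1 peak and Neurod6 had none.

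The peaks come from chromatin immunoprecipitation and sequencing of hippocampal nuclei of male mice aged 6 months. The 4 genotypes were wild type (WT, C57BL/6N), Mutyh-/-, Ogg1-/- and the double knockout of both genes (DKO). Both genes encode DNA glycosylases. Ogg1 starts the removal of an oxidised guanine from DNA, and Mutyh removes adenine wrongly placed opposite that base. Nuclei were sorted on the neuronal protein NeuN, so that NeuN+ holds neurons of all kinds, inhibitory ones included, and NeuN- holds the remaining cells, largely glia. Each library was made from hippocampi of several animals of 1 genotype that had been pooled, and each genotype had 3 libraries per antibody and fraction, 72 in all. The deletions are in the whole animal, so neurons and glia both lacked the enzymes. Nothing in the sources used here says whether same-numbered libraries of different antibodies came from the same pool. The limma p-values measure the spread between pooled libraries. For H3K27me3 and Suz12 that spread was taken from all peaks of a table and not from the single peak.

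H3K4me3 is a histone mark found at promoters that are active or ready for use. H3K27me3 is laid down by Polycomb repressive complex 2 (PRC2), of which Suz12 is a subunit, and marks silent developmental genes. In differentiated tissue, genes of another lineage are often kept silent by PRC2, and a promoter that holds both marks is called bivalent. In mixed nuclei, overlapping peaks do not show that both marks sat on the same allele or in the same cell.

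Depth limited every value. Total reads in peaks ran from 96023 to 548706 per library for H3K4me3 in NeuN+, from 39320 to 120004 for H3K4me3 in NeuN-, from 23794 to 52344 for H3K27me3 in NeuN+, from 19132 to 78250 for H3K27me3 in NeuN-, from 6652 to 33035 for Suz12 in NeuN+ and from 11887 to 66148 for Suz12 in NeuN-. The fractions were checked against marker genes. All 7 pan-neuronal markers had an H3K4me3 peak in NeuN+ and 0 of 7 had one in NeuN-. In NeuN+ an H3K4me3 peak was also present for 3 of 7 astrocyte, 2 of 8 oligodendrocyte lineage, 0 of 6 microglial and 1 of 5 endothelial genes. The share over the 13117 genes with a peak of any antibody and fraction was 87.8%. The marker lists also hold genes with no peak at all, so their shares are on a different base. Whether such peaks reflect mixing of the fractions was not tested, and the paper reports a high purity of the sorted nuclei. Markers of NeuN- cells were poorly covered, since an H3K4me3 peak in NeuN- was present for 1 of 7 astrocyte, 1 of 8 oligodendrocyte lineage, 0 of 6 microglial and 0 of 5 endothelial genes, so the absence of a NeuN- peak carries little weight. Of the targeted genes, Ogg1 had a single peak and Mutyh had none, and peak values do not check a deletion.

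Sequences are shown for the windows on which the results turn, in the GRCm38 build, each written 5′ to 3′ along the strand of its gene with every CG dinucleotide in capitals, since CG density is a known property of promoters that carry H3K4me3 and of PRC2 target sites. The first is the stretch of 250 bases before a RefSeq start of Prox1 that lay inside both its H3K4me3 and its H3K27me3 peak (chr1:190169516-190169765, minus strand, 11 CG). The second is the Neurod2 window shared by the H3K4me3 peak of NeuN+ and the Suz12 peak of NeuN- (chr11:98328275-98328574, minus strand, 26 CG), which spans the end of an intron and the first coding bases. The third is the part of the H3K27me3 peak of NeuN- before the first GENCODE start of Bcl11b (chr12:108003603-108003823, minus strand, 7 CG). RefSeq places these bases inside the gene. The fourth is the promoter of Neurod6 (chr6:55681264-55681513, minus strand, 3 CG), the only one of the genes with no peak.
Prox1: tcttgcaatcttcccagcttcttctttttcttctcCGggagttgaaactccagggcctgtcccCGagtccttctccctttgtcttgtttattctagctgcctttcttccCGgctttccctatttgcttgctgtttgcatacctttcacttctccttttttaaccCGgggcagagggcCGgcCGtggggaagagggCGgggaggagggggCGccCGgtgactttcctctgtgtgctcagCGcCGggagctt
Neurod2: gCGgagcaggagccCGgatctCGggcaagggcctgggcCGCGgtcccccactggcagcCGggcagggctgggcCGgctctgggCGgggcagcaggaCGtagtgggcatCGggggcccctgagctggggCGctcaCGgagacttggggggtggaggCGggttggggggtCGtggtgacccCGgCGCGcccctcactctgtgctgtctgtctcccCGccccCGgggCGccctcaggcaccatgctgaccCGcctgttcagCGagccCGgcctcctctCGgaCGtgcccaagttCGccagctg
Bcl11b: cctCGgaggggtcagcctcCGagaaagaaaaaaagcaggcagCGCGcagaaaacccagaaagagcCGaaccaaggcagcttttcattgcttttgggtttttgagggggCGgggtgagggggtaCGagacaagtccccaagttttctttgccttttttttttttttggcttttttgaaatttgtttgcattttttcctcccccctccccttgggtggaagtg
Neurod6: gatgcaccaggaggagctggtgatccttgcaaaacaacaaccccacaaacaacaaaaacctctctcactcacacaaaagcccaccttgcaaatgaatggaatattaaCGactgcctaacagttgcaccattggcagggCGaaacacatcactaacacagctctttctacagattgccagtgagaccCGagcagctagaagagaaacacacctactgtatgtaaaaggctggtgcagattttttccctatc
Over 32851 RefSeq promoter windows of 300 bases, the median held 7 CG dinucleotides. The 300-base windows of Neurod6 and of the Prox1 start printed above held 3 and 14, at the 27.3 and 64.5 percentile of all windows.

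The first question was where the marks lay. Of the 19 peaks, 11 were H3K4me3 peaks in NeuN+ (of 12628), 1 was an H3K27me3 peak in NeuN+ (of 4132), 6 were H3K27me3 peaks in NeuN- (of 1698) and 1 was a Suz12 peak in NeuN- (of 312). None was among the 775 Suz12 peaks of NeuN+ or the 3270 H3K4me3 peaks of NeuN-. Thus 8 of 9 genes carried an H3K4me3 peak in NeuN+, and 4 of those 8 (Neurod2, Tbr1, Bcl11b and Slc17a7) carried an H3K27me3 peak in NeuN- with no H3K4me3 peak there.

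These shares stand beside those of all genes with an H3K4me3 peak in NeuN+. Of 11512 genes with an H3K4me3 peak in NeuN+, 26.1% also had one in NeuN-, against 0 of the 8 members. An H3K27me3 peak in NeuN- with no H3K4me3 peak there was found for 4.59% of the 11512 genes, against 4 of 8. An H3K27me3 peak in NeuN+ was found for 7.82% of them, against 1 of 8, and a Suz12 peak in NeuN- for 0.843%, against 1 of 8. The 9 genes were chosen as a class with earlier results of these data known, and these counts are a description, with no test. A single set of peaks served all genotypes, so presence is not that of WT alone. At the H3K27me3 peaks of NeuN- the WT reads were 0, 0 and 3 for Neurod2. They were 2, 0 and 0 for the Bcl11b promoter and 8, 0 and 2 for its exon 2 peak. For Tbr1 they were 4, 0 and 0 at the promoter and 2, 0 and 4 in intron 5, and for Slc17a7 6, 3 and 5.

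**Figure D1:**
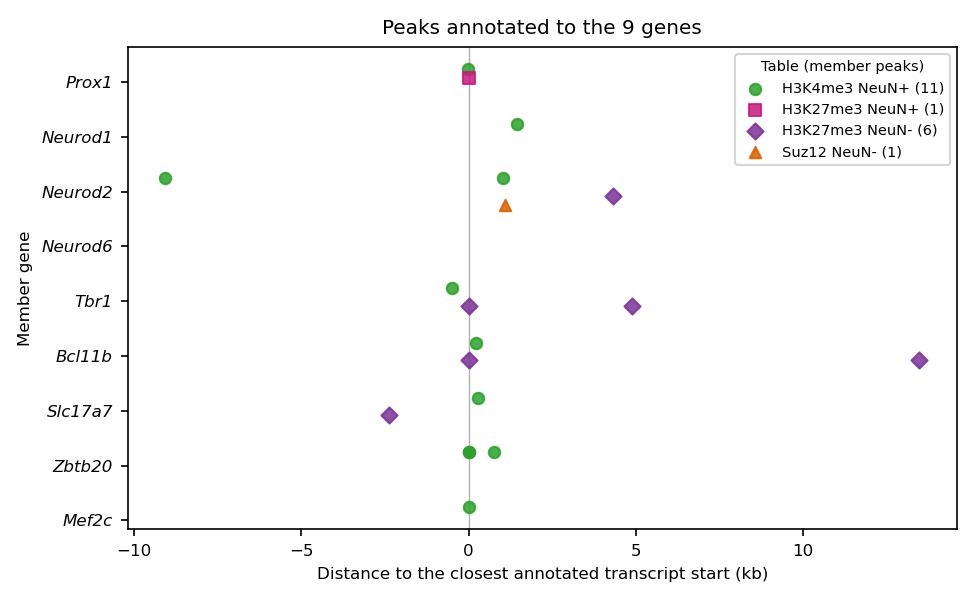
The horizontal axis gives the deposited distance, in kb, from each peak to the closest annotated transcript start, and the rows are the 9 genes, with a symbol for each antibody and fraction. H3K4me3 peaks of NeuN+ (circles) sit within 2 kb of a start except for 1 Neurod2 peak at -9065 bp, H3K27me3 peaks of NeuN- (diamonds) lie between -2377 and 13469 bp, and the Neurod6 row is empty.

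A wider list of 36 other genes of excitatory identity showed how typical the members were. In NeuN+, 29 of the 36 had an H3K4me3 peak, 11 an H3K27me3 peak and 4 a Suz12 peak. In NeuN-, 7 of the 36 had an H3K4me3 peak, 15 an H3K27me3 peak and 0 a Suz12 peak. Over the 13117 genes with a peak of any antibody and fraction, the corresponding shares were 87.8%, 16.8% and 4.03% in NeuN+ and 23.9%, 9.39% and 1.01% in NeuN-. Genes with no peak at all are left out of these shares but kept in the lists, so the bases differ. The H3K27me3 share in NeuN- was thus 41.7% in the wider list and 44.4% (4 of 9) in the members. Genes of inhibitory neurons had an H3K4me3 peak in NeuN+ in 2 of 11 cases and an H3K27me3 peak in NeuN- in 4 of 11. The latter was also present for 2 of 7 pan-neuronal and 3 of 5 endothelial genes. It was present for 1 of 7 astrocyte, 1 of 8 oligodendrocyte lineage and 0 of 6 microglial genes. The wider list was also chosen with earlier results of these data known.

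Prox1, the dentate granule cell factor, was the only member with H3K27me3 in NeuN+. Its H3K4me3 peak (chr1:190169410-190169810) and its H3K27me3 peak (chr1:190169376-190169776) were both annotated as promoter and shared 367 of 401 bp. The Prox1 gene lies on the minus strand, and GENCODE places the H3K4me3 window in an intron of Prox1 and in an exon of an antisense transcript, while the H3K27me3 window overlaps an exon and holds 1 of the 3 annotated transcript starts of the gene. No Suz12 peak lay within 389 kb of the gene in NeuN+. A NeuN- H3K4me3 peak annotated to Prox1os, the antisense neighbour, overlapped the NeuN+ peak by 33 bp and was not counted as a member. The same presence of peaks as Prox1, H3K4me3 and H3K27me3 in NeuN+ alone, was found for 366 other genes, and those nearest to it in the percentile of the WT mean were Rcan3, St14 and Rgs3, at 2.42, 2.45 and 2.98 percentile points.

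Neurod2 had 4 peaks in 3 tables. No other gene had peaks in exactly these 3 and in no other, and a gene with a further kind of peak was not counted as a match. A Suz12 peak in NeuN- was itself rare, being present for 133 genes. Its promoter-proximal H3K4me3 peak in NeuN+ (chr11:98328220-98328620, 1028 bp inside the gene) overlapped the Suz12 peak of NeuN- (chr11:98328174-98328574) by 355 bp. An H3K27me3 peak of NeuN- (chr11:98324944-98325344) lay downstream of the gene and was annotated as distal. A further H3K4me3 peak of NeuN+ lay upstream in intergenic sequence, at -9065 bp (chr11:98338713-98339113). It held 54 CG dinucleotides, above 89.4% of the peaks in its table.

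Tbr1 and Bcl11b had H3K4me3 in NeuN+ close to H3K27me3 in NeuN-, so the marks were seen in different fractions. WT reads at both NeuN- promoter peaks were few, as given above. The Bcl11b promoter peak of H3K27me3 in NeuN- (chr12:108003423-108003823) began 217 bp from its H3K4me3 peak in NeuN+ (chr12:108002805-108003205), upstream of it. The Tbr1 promoter peak of H3K27me3 in NeuN- (chr2:61805964-61806364) lay 191 bp from its H3K4me3 peak in NeuN+ (chr2:61805372-61805772), downstream of it. Each gene had a further H3K27me3 peak in NeuN- inside the gene body, for Bcl11b in exon 2 (chr12:107989545-107989945) and for Tbr1 in intron 5 (chr2:61811154-61811554).

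Slc17a7 had an H3K4me3 peak in its first kb (chr7:45164319-45164719) and an H3K27me3 peak of NeuN- in intron 1 (chr7:45166781-45167181), of which 65.8% of bases were soft-masked repeats. At least 50% masked bases were found in 5.54% of the peaks of that table. Tbr1, Bcl11b and Slc17a7 shared their presence pattern with 297 genes each, 2 of them members, and the nearest by WT level were Cacng2 for Tbr1, Golga7b for Bcl11b and Chrna4 for Slc17a7.

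Neurod1, Mef2c and Zbtb20 had H3K4me3 in NeuN+ and no peak of another table, as did 7524 other genes for each of them. For Neurod1 an H3K27me3 peak of NeuN- annotated to Cerkl began 776 bp upstream of the gene (chr2:79457412-79457812). It was not counted as a member, and was looked for after the values were seen. For Neurod6, the nearest peak of any table was an H3K4me3 peak of NeuN+ annotated to Adcyap1r1, 225 kb away. The factor is an established marker of pyramidal neurons, and the lack of a called peak does not show that the mark was absent.

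The second question was how strong H3K4me3 was at the members. All 19 windows were 401 bp wide, so levels, given as normalised reads per peak, compare between genes. In WT NeuN+ nuclei the level was highest at Bcl11b with 28.3 ± 9.41 (SD, n = 3) and at Tbr1 with 24.7 ± 7.01. Slc17a7 (18.8 ± 7.02), the promoter-proximal Neurod2 peak (17.7 ± 6.59), Mef2c (17.1 ± 2.03) and the distal Neurod2 peak (16.2 ± 2.95) followed. These 4 sat within the spread of each other.

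The lower levels were those of the third Zbtb20 peak (11.8 ± 3.42), the first Zbtb20 peak (10.7 ± 0.944), Neurod1 (9.86 ± 6.88), Prox1 (8.37 ± 0.572) and the second Zbtb20 peak (4.07 ± 3.60). Of the 10 pairs of neighbours in this order, 8 differed by less than the larger SD of the pair and 9 had overlapping ranges, the exception being Prox1 and the second Zbtb20 peak. Among all H3K4me3 peaks of NeuN+, 9 of the 11 member peaks lay below the 50th percentile of WT means, with a median at the 23.9 percentile and a range from 0.871 to 70.8. A peak from part of the neurons would have a low mean in mixed nuclei, and fewer cells of a type cannot be told apart from less signal per cell.

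**Figure D2:**
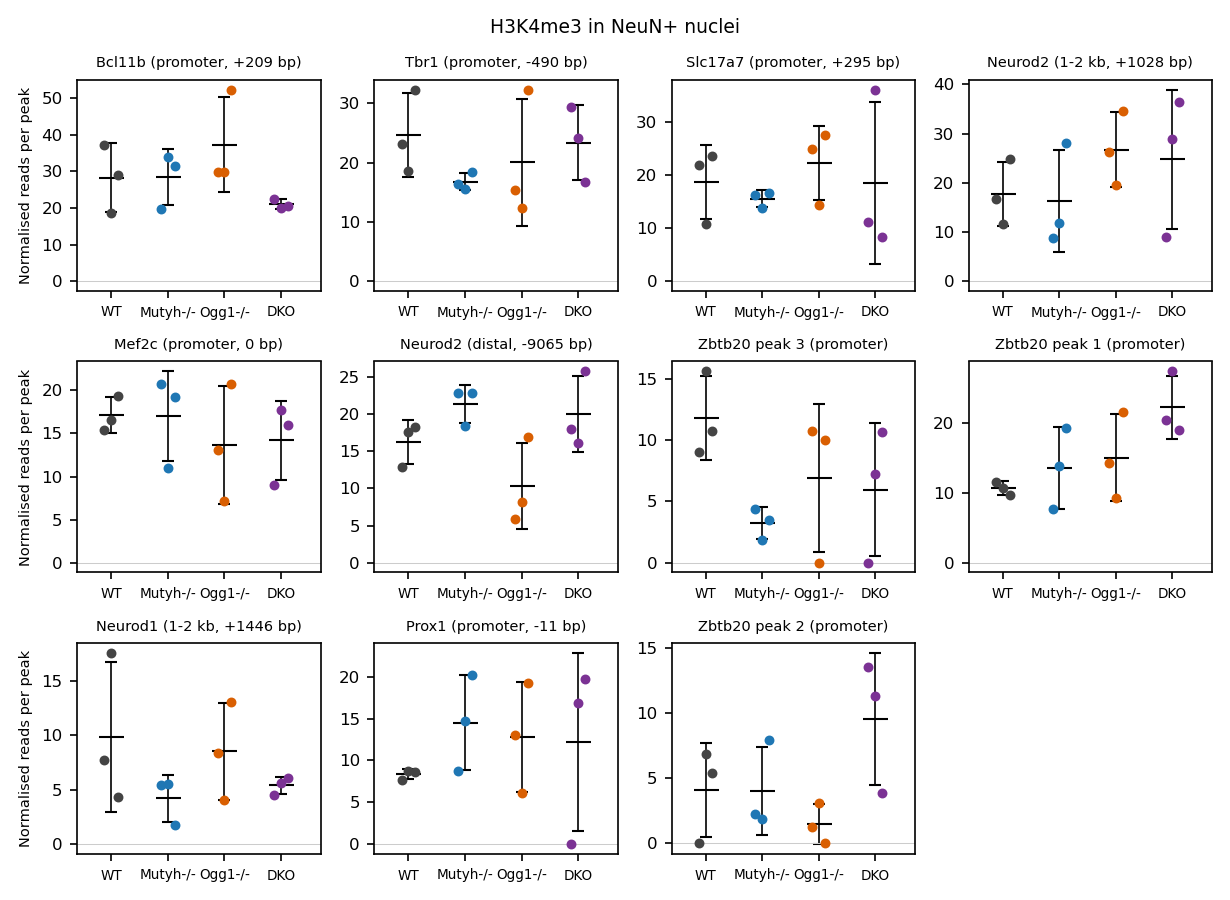
Each panel is 1 H3K4me3 peak in NeuN+ nuclei, ordered by WT mean, with normalised reads per peak on the vertical axis (linear, scale differs by panel), 3 libraries per genotype as points, and mean and SD as bars. Bcl11b and Tbr1 have the highest WT means, 28.3 and 24.7, and the genotypes overlap in most panels.

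Zbtb20, a zinc finger repressor needed for the CA1 field, showed how uneven the peaks of 1 gene can be. Its first peak (chr16:42875757-42876157) held 50 CG dinucleotides in 401 bp, while the second (chr16:42907616-42908016) held 3 and the third (chr16:43504458-43504858) held 1, at the 0.883 and 0.238 percentile of the table, whose median was 35. The middle 150 bases of the first peak (chr16:42875883-42876032) and of the third peak (chr16:43504584-43504733) are printed on the plus strand, the strand of the gene, to show the contrast, with CG in capitals.
Zbtb20, CG-rich peak: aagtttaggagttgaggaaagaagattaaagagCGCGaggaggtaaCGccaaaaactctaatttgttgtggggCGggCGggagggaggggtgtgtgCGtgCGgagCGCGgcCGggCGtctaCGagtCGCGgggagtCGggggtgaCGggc
Zbtb20, CG-poor peak: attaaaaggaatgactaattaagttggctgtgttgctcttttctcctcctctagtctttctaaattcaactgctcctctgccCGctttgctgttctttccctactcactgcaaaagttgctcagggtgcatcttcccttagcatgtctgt
Each was annotated as promoter, since the gene has 19 annotated transcript starts over 767 kb. The mean over the 12 libraries was 15.4 ± 6.05 for the first, 4.75 ± 4.38 for the second and 6.97 ± 4.98 for the third. The second peak and the third peak each had 2 libraries with no read.

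The third question was whether the loss of Mutyh, Ogg1 or both moved these values. A peak was called a differentially enriched region (DER) where its unadjusted limma p was under 0.05 and its fitted change from WT exceeded 0.5 in either direction on the log2 scale, with thresholds taken from the study, which applied them to an edgeR fit. Fold changes are on the log2(value + 1) scale, and adjusted p is the Benjamini-Hochberg value over all peaks of a table. Over the 19 peaks and 3 knockouts, the rule was met by 1 contrast, H3K27me3 at Prox1 in Ogg1-/- NeuN+ nuclei. It did not pass adjustment, and no contrast of a member peak did.

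The H3K27me3 values of the Prox1 promoter in NeuN+ were 5.48, 14.4 and 11.2 in WT and 0 in each of the 3 Ogg1-/- libraries. They were 0, 6.64 and 7.99 in Mutyh-/- and 3.28, 9.69 and 10.4 in DKO. All WT libraries were thus above all Ogg1-/- libraries, whereas Mutyh-/- and DKO overlapped with WT. In reads, WT had 5, 13 and 13, Ogg1-/- 0, 0 and 0, Mutyh-/- 0, 6 and 8, and DKO 3, 10 and 13.

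With 3 reads over the group as the limit that a count of 0 allows, the Ogg1-/- level was at least 10.1-fold below the WT mean of 10.4 ± 4.52. That limit covers counting error in Ogg1-/- alone. It takes the WT mean as exact and leaves out the spread between libraries, so it is no lower bound on the difference between genotypes. The fitted log2 fold change was -3.42 ± 1.03 (SE), with a 95% interval from -5.43 to -1.41 and an adjusted p = 0.718 in limma. In Mutyh-/- it was -1.38, with an interval from -3.39 to 0.63, and in DKO -0.41, from -2.42 to 1.60. The Ogg1-/- contrast met the rule in each of 23 alternative settings, and over these the adjusted p lay between 0.261 and 1.00. All settings started from the same peaks. The study kept peaks found in several replicates, and this window, with no read in Ogg1-/-, was kept through the other genotypes. The contrast is thus not independent of how the peaks were chosen, in any of the settings.

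In this table the rule was met by 3.82% of peaks in Ogg1-/- (2.35% lower, 1.48% higher), by 3.78% in Mutyh-/- and by 3.36% in DKO, so a call at 1 of 1 peak is set against that share. An adjusted p under 0.05 was given to 0.0484% of peaks in Ogg1-/-, 0.121% in Mutyh-/- and 0% in DKO, the Prox1 peak not among them. WT and Ogg1-/- libraries did not overlap at 9.17% of all peaks, against 9.15% for Mutyh-/- and 9.08% for DKO. Peaks with no overlap were thus about as frequent in all 3 knockouts. The median log2 fold change over all peaks was -0.21 in Mutyh-/-, -0.11 in Ogg1-/- and -0.01 in DKO, so that the Prox1 change in Ogg1-/- was -3.31 relative to the table. In DESeq2 these medians were -0.05, -0.01 and -0.04. By their own fits, edgeR called 3.22% of peaks in Ogg1-/-, 3.61% in Mutyh-/- and 2.52% in DKO, and DESeq2 4.55%, 4.77% and 3.65%.

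Peaks at which a whole genotype lacked reads were few in this table. All 3 Ogg1-/- libraries had no read at 45 of 4132 peaks (1.09%), and all 3 WT libraries at 36 (0.871%). Reads in peaks were 25199 to 37591 in the Ogg1-/- libraries and 24158 to 34712 in WT, so that the depths overlapped. Windows without a read made up 9.66% to 23.98% of the table in the Ogg1-/- libraries and 11.01% to 16.2% in WT, and the part of these empty windows in the result was not tested. The DKO value less the sum of the single knockout effects was 4.39 ± 1.45 (95% interval from 1.55 to 7.24, adjusted p = 0.989 in limma), and the F test over the 4 genotypes gave an adjusted p = 0.997. Neither passed adjustment, and the table had an adjusted p under 0.05 for 0.0968% and 0.121% of peaks in these tests.

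No change of H3K4me3 was detected at the same promoter, where the intervals were wide. The values in NeuN+ were 7.72, 8.78 and 8.62 in WT, 13.1, 6.15 and 19.2 in Ogg1-/-, 8.72, 14.7 and 20.1 in Mutyh-/- and 0, 16.9 and 19.7 in DKO. The Ogg1-/- log2 fold change was 0.44 ± 0.83, with a 95% interval from -1.24 to 2.12. The DKO library without a read, replicate 1, was also the one with the fewest reads in peaks, 96023. The difference between the H3K4me3 and the H3K27me3 response was not tested.

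Through its 33 bp overlap with the Prox1os peak, the Prox1 peak was the only member peak among 3000 H3K4me3 peaks shared by both fractions. The knockout effect was compared there between the values of the whole 401 bp windows, most of whose sequence differs. Libraries of both fractions were taken as independent, though both fractions were collected from the sorted nuclei. The Ogg1-/- effect in NeuN+ minus that in NeuN- was 1.68 ± 1.49 on the log2 scale (adjusted p = 1.00 in limma), and the Mutyh-/- and DKO differences were 1.13 ± 1.49 and 1.01 ± 1.49. None was called, and over all shared peaks 0 passed adjustment by limma while 54 had an unadjusted p under 0.05 in Ogg1-/-. The edgeR and DESeq2 fits called 0 at this peak.

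At the 11 H3K4me3 peaks of NeuN+, 0 of 33 contrasts met the rule, and 0 had an unadjusted p under 0.05 in limma. edgeR and DESeq2 on whole reads each called 2 of 33. Over the table edgeR called 4.01% in Mutyh-/-, 3.97% in Ogg1-/- and 3.88% in DKO, and DESeq2 called 2.99%, 2.99% and 2.81%. With limma, over all peaks of the table, 0.911% met the rule in Mutyh-/-, 0.966% in Ogg1-/- and 1.46% in DKO. By limma and edgeR 0 peaks passed adjustment, and by DESeq2 5 did, all in Ogg1-/-, where it called no member. The F test over genotypes gave an adjusted p = 1.00 for each of the 11 peaks in limma, and none passed adjustment in edgeR or DESeq2, while 0% of the table passed it in limma. Fold changes ranged from -1.61 to 1.36 with SE from 0.40 to 1.09, so that at the best measured peak a log2 change of 0.82, and at the least measured 2.22, was needed for an unadjusted p under 0.05 in this fit.

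The median log2 fold change of the 11 peaks was -0.05 in Mutyh-/-, -0.12 in Ogg1-/- and -0.21 in DKO, beside medians of -0.07, 0.08 and -0.02 over all peaks. The 3 and 3 libraries did not overlap for 3 of 11 peaks in Mutyh-/- (5.77% of all peaks), 0 of 11 in Ogg1-/- (3.68%) and 1 of 11 in DKO (5.02%). In Mutyh-/- the 3 were the distal Neurod2 peak, Tbr1 and the third Zbtb20 peak. The wider list of 36 genes had 40 peaks in this table, of which 0 met the rule in any knockout, also by limma.

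Of the H3K4me3 peaks, those of Zbtb20 came nearest to a call. The first peak had 11.6, 10.7 and 9.69 in WT and 20.3, 27.3 and 18.95 in DKO, with no overlap, and 7.63, 13.8 and 19.3 in Mutyh-/- and 14.3, 9.23 and 21.5 in Ogg1-/-. Its DKO log2 fold change was 0.98 ± 0.55 (95% interval from -0.13 to 2.09, adjusted p = 1.00 in limma), and 5 of 23 alternative settings called it. These were both scalings of recovered reads in limma (TMM factors and total reads), edgeR, DESeq2 and loess scaling.

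The third Zbtb20 peak had 9.0, 15.6 and 10.8 in WT and 4.36, 1.84 and 3.50 in Mutyh-/-, again with no overlap. Values were 10.7, 0 and 10.0 in Ogg1-/- and 0, 7.24 and 10.6 in DKO. The Mutyh-/- log2 fold change was -1.61 ± 1.02 (95% interval from -3.70 to 0.47, adjusted p = 1.00 in limma), and 4 of 23 settings called it. The second peak had 0, 6.83 and 5.38 in WT and 13.5, 11.3 and 3.79 in DKO, with overlap. Its DKO log2 fold change was 1.36, with a 95% interval from -0.86 to 3.59.

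The 3 promoter peaks of Zbtb20 thus had fitted DKO changes of 0.98, 1.36 and -1.45, at levels of 0 to 34 reads per library. None met the rule in limma, and the differences between the peaks were not tested.

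Tbr1, the factor of early-born glutamatergic neurons, had H3K4me3 values of 23.2, 18.5 and 32.3 in WT and 16.3, 15.6 and 18.4 in Mutyh-/-, just apart from each other. The log2 fold change was -0.50 ± 0.46, with a 95% interval from -1.44 to 0.45. The distal Neurod2 peak had 12.9, 17.6 and 18.3 in WT, 22.9, 18.4 and 22.8 in Mutyh-/- and 5.95, 8.21 and 16.9 in Ogg1-/-. Its fold changes were 0.38 ± 0.52 in Mutyh-/- (95% interval from -0.67 to 1.44) and -0.71 ± 0.52 in Ogg1-/- (from -1.76 to 0.35), and without Ogg1-/- replicate 3 the latter was -1.09, which met the rule. Neither was a call with all libraries.

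For the rest, no difference between genotypes beyond the spread between libraries was detected. Bcl11b ranged from 18.5 to 52.3 over the 12 libraries with a median of 29.4, Slc17a7 from 8.34 to 36.2 with a median of 16.5, and Mef2c, the calcium-responsive MADS-box factor, from 7.18 to 20.8 with a median of 16.3. Neurod1 ranged from 1.75 to 17.6 with a median of 5.57, and the promoter-proximal Neurod2 peak from 8.72 to 36.4 with a median of 22.1. WT lay within the range of the knockouts for these peaks or overlapped with it.

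**Figure D3:**
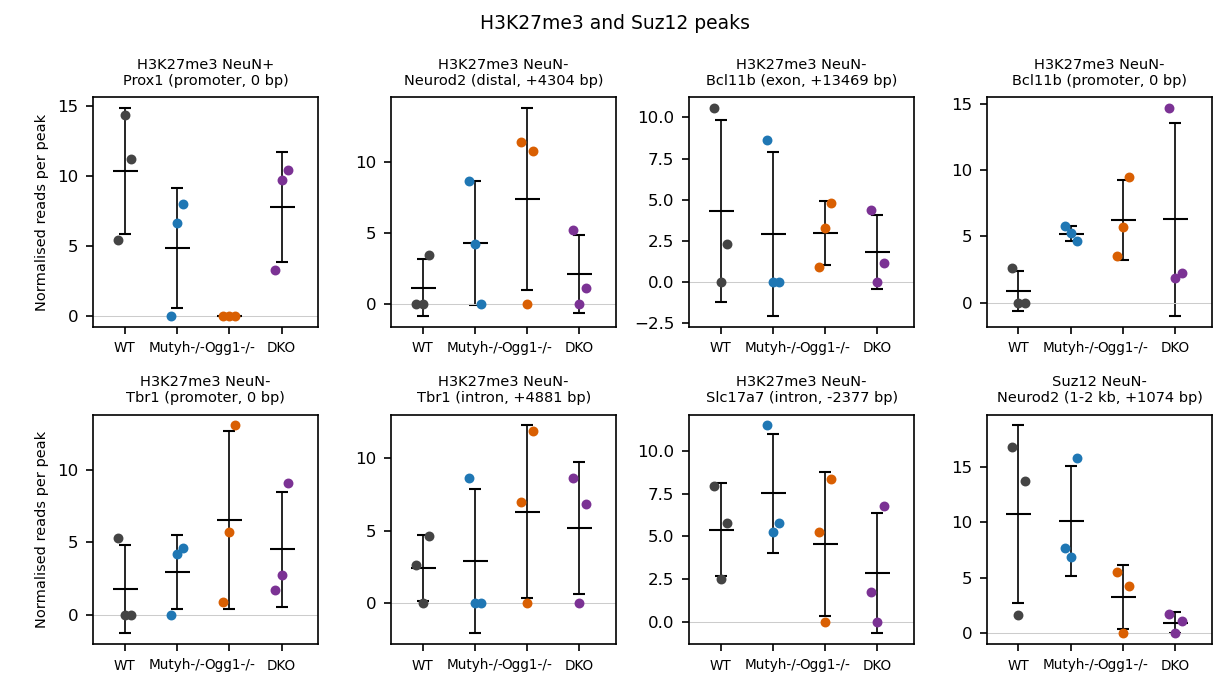
Each panel is 1 H3K27me3 or Suz12 peak of a member gene, with normalised reads per peak on the vertical axis (linear, scale differs by panel), 3 libraries per genotype as points, and mean and SD as bars. The 3 Ogg1-/- libraries sit at 0 for Prox1 H3K27me3 in NeuN+, where WT is between 5.48 and 14.4, and the NeuN- panels are scattered, most with libraries at 0.

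At the 6 H3K27me3 peaks of NeuN-, 0 of 18 contrasts met the rule in limma, edgeR or DESeq2, and 0 had an unadjusted p under 0.05 in limma. Over all peaks of the table, 2% met it in Mutyh-/-, 4.18% in Ogg1-/- and 2.3% in DKO by limma. The shares were 4.3%, 4.12% and 3.89% by edgeR and 6.18%, 4.24% and 4.06% by DESeq2. Values were low, from 0 to 14.7, and each peak had between 2 and 5 of its 12 libraries without a read. The F test gave an adjusted p = 0.998 for each of the 6 in limma, and by limma 0% of the table passed adjustment in this test or in any contrast, while edgeR and DESeq2 each passed 1 peak in DKO. The median log2 fold change over the 6 peaks was 0.59 in Mutyh-/-, 1.19 in Ogg1-/- and 0.58 in DKO, beside 0.29, 0.58 and 0.41 over all peaks, so that most of the table lay above WT. That shift of the table was smaller under other scalings, with medians of 0.08, 0.21 and 0.21 in edgeR (TMM factors) and of 0.02, 0.04 and 0.02 in DESeq2, and it turned slightly negative with loess scaling. Relative to the limma medians, the member medians were 0.30, 0.61 and 0.16.

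The Bcl11b promoter, whose sequence is printed above, had H3K27me3 values in NeuN- of 2.65, 0 and 0 in WT. The values were 5.76, 5.28 and 4.62 in Mutyh-/-, 3.51, 5.72 and 9.54 in Ogg1-/- and 14.7, 1.85 and 2.27 in DKO. WT did not overlap with Mutyh-/- or Ogg1-/- here, which was so for 1 of 6 member peaks in each and for 6.6% and 9.78% of all peaks, and it overlapped with DKO, as at all 6 peaks (6.77% of all peaks did not).

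Fitted log2 fold changes at that promoter were 2.01 ± 1.15 in Mutyh-/- (95% interval from -0.25 to 4.27), 2.15 ± 1.15 in Ogg1-/- (from -0.11 to 4.41) and 1.78 ± 1.15 in DKO (from -0.49 to 4.04). The lowest adjusted p of the 3 was 0.963 in limma. Without WT replicate 1 the first became 2.63 and the second 2.77, both of which met the rule. The peak in exon 2 of the same gene had 10.6, 0 and 2.31 in WT and means of 2.88 in Mutyh-/-, 2.97 in Ogg1-/- and 1.82 in DKO. It showed no such separation.

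The Tbr1 promoter had 5.29, 0 and 0 in WT, 0, 4.22 and 4.62 in Mutyh-/-, 0.876, 5.72 and 13.1 in Ogg1-/- and 1.73, 2.77 and 9.08 in DKO. The genotypes overlapped. At its intron 5 peak, the Slc17a7 peak and the Neurod2 peak each knockout overlapped with WT as well. At the Neurod2 peak the means were 1.15 ± 2.00 in WT and 7.38 ± 6.40 in Ogg1-/-, where replicate 2 had no read. Without that library the log2 fold change moved from 1.68 (95% interval from -0.55 to 3.90) to 2.87, which met the rule. Of the 12 libraries, 5 had no read at this peak. WT replicates 1 and 2 and DKO replicate 2 were among them and stayed in that fit, so the move rests on leaving out an empty library on 1 side only.

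The Suz12 peak of Neurod2 in NeuN- had 16.8, 1.66 and 13.7 in WT and 7.71, 6.85 and 15.8 in Mutyh-/-. It had 5.52, 0 and 4.29 in Ogg1-/- and 1.80, 0 and 1.15 in DKO. DKO was lower than 2 of the 3 WT libraries but overlapped with WT replicate 2, which had 2 reads. The log2 fold change in DKO was -2.29 ± 1.28 (95% interval from -4.80 to 0.23, adjusted p = 0.670 in limma), and in Ogg1-/- it was -1.45 ± 1.28 (from -3.96 to 1.07). The medians over all Suz12 peaks were 0.26 in DKO and 0.52 in Ogg1-/-, and 0.07 and 0.27 with edgeR's TMM factors, but -0.23 and -0.14 in limma with total reads as library size, so that the direction of the table's shift turned with the scaling. With total reads the DKO change at Neurod2 was -2.30, which met the rule. Each knockout overlapped with WT at this peak, while no overlap was seen for 6.73% of all peaks in Mutyh-/-, 17.3% in Ogg1-/- and 10.9% in DKO.

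No Suz12 contrast met the rule in limma, nor did any have an unadjusted p under 0.05, against 6.73% of the 312 peaks called in DKO, 11.2% in Ogg1-/- and 3.85% in Mutyh-/-. With adjustment 0% of the table passed in limma and 2 peaks passed in edgeR, both in DKO, and the adjusted p of the F test at the peak was 0.674 in limma. edgeR called 0 at the Neurod2 peak, and over all peaks 5.77% in DKO, 8.33% in Ogg1-/- and 4.81% in Mutyh-/-. DESeq2, with table shares of 6.41%, 7.69% and 5.77%, called 1 at the Neurod2 peak, the DKO contrast, with a fold change of -3.63 (adjusted p = 0.409 in DESeq2). Without WT replicate 2 the limma value was -3.16, which met the rule. H3K4me3 in NeuN+ at the overlapping window had a DKO fold change of 0.32 ± 0.53, with a 95% interval from -0.76 to 1.39.

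**Figure D4:**
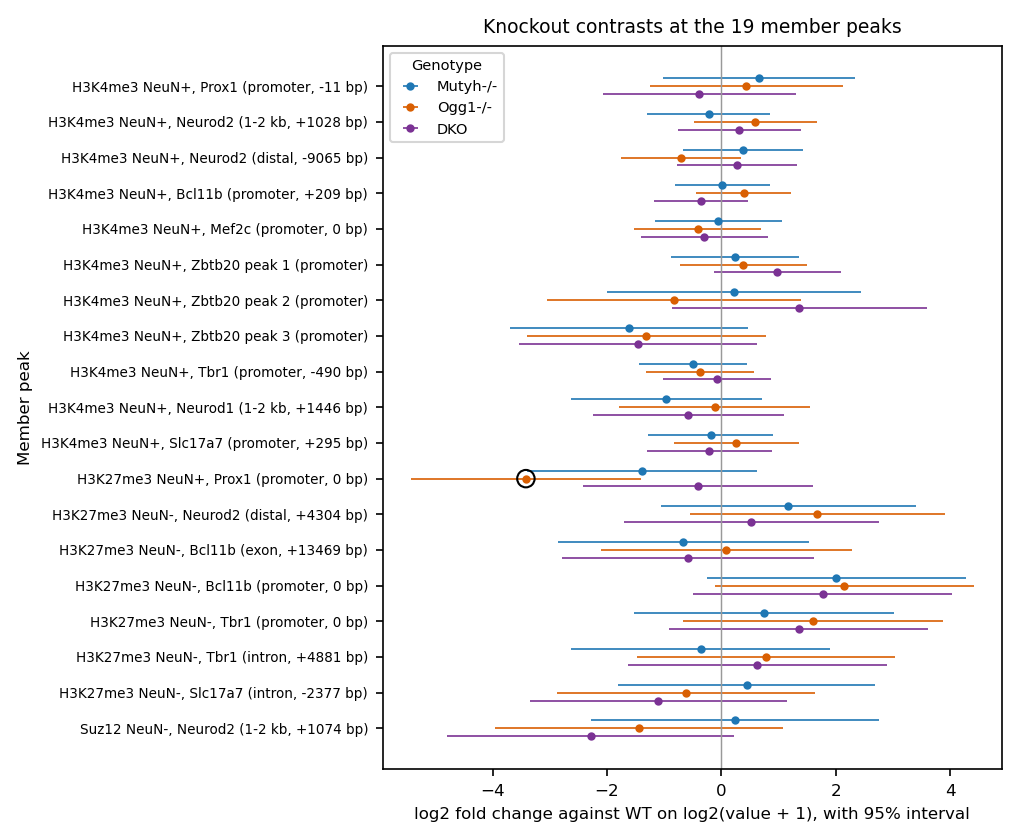
The horizontal axis gives the log2 fold change against WT on the log2(value + 1) scale with its 95% interval, for the 19 member peaks (rows) and 3 knockouts (colours), and the ring marks the contrast that met the rule. H3K27me3 at Prox1 in Ogg1-/- NeuN+ nuclei, at -3.42, carries the ring, and 1 interval of 57 excludes 0.

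The non-additive contrast (DKO less both single knockout effects) passed adjustment at 0 of the 19 peaks in limma, edgeR and DESeq2. Beside Prox1 H3K27me3 no member peak had an unadjusted p under 0.05 in limma. The 95% intervals at the Bcl11b promoter in NeuN-, from -5.59 to 0.82, and at the Neurod2 H3K27me3 peak, from -5.47 to 0.83, both spanned 0.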

How the data were processed

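Hippocampal nuclei sorted on NeuN were profiled for H3K4me3, H3K27me3 and Suz12 (72 libraries, and 24 input libraries that were not used here). Per the labels and the study's methods, the authors aligned reads to GRCm38 (mm10) with Bowtie2 2.3.5.1, called enriched regions, formed consensus peaks and counted reads with DiffBind 3.10.1, compared genotypes with edgeR 3.42.4 and annotated peaks with ChIPseeker 1.36. How duplicates, blacklists and input were treated is not given in the sources used here. The deposited values are signal, reads per 401 bp window times a factor for each library, and whole reads were recovered from them (100% of values whole within 0.001).

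limma 3.58.1 (trend) was fitted on log2(value + 1) over all peaks of a table, 12 libraries in 1 fit with genotype as the term. edgeR 4.0.16 (quasi-likelihood) and DESeq2 1.42.0 on recovered reads, other pseudocounts, filters and scalings, a replicate block and leaving out each library were alternatives (R 4.3.3). Scripts were tested on simulated data. All 9 genes were named, with every peak whose deposited symbol matched, and contrasts were given in full where called. Up to 3 genes of the same presence pattern were named by distance in WT percentile. For H3K27me3 and Suz12 peaks, limma took the spread wholly from the trend over all peaks. For H3K4me3 in NeuN+ it weighed that trend with 24.9 prior against 8 residual degrees of freedom. The 95% intervals are those of the limma fit, and the limit that a count of 0 allows covers counting error only. The members and lists were chosen with earlier results of these data known. Levels were not tested between fractions, because the tables were normalised separately. Replicate numbers did not meet the criterion for pairing: in the 4 tables with member peaks, same-numbered libraries of WT and a knockout deviated from their group means with correlations from -0.101 to 0.153, and 0 of 12 knockout and table combinations had all 3 over 0.1 (1 of 18 in all 6 tables, Suz12 NeuN+ in Mutyh-/-, where no member has a peak). A level shared by all peaks of a library does not enter these correlations, so they cannot show a replicate effect of that kind. In H3K27me3 NeuN- the replicate block called 83 peaks in Mutyh-/-, 136 in Ogg1-/- and 75 in DKO, against 34, 71 and 39 without it.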

Additional observations from a re-analysis of the deposited data

How the results depend on the processing

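The Ogg1-/- call at Prox1 H3K27me3 in NeuN+ remained in each of the 23 alternatives, with log2 fold changes from -6.39 to -1.17. These alternatives share the choice of peaks, which was not free of the Ogg1-/- values. Counts of adjusted F tests, non-additive effects and fraction differences at member peaks were 0 in each alternative run. Of 11 H3K4me3 peaks in NeuN+, 0 contrasts were called with all libraries and with the pseudocount of 0.5, robust estimation and the replicate block, 1 with the pseudocount of 8, with TMM factors in limma, with total reads as library size, with loess scaling and with the 2 genotypes compared alone, and 2 with edgeR and with DESeq2. Leaving out 1 library gave 0 to 1. The filter on the lowest 25% left 4 of these 11 peaks, 5 of 6 in H3K27me3 NeuN-, and both single peaks of the other tables. In H3K27me3 NeuN-, 0 rose to 2 with the replicate block (Bcl11b promoter, Mutyh-/- and Ogg1-/-). The correlations there were below the pairing threshold in at least 1 pair of each knockout, and leaving out 1 library gave 0 to 2. Replicate 2 had the most reads in peaks in each of the 4 genotypes. Yet 31.0% to 40.8% of its windows held no read, against 6.24% to 37.9% in the other libraries. At the Tbr1 intron 5 peak, replicate 2 had 0 reads in all 4 genotypes. The main fit has no term for the replicate, so it leaves such a pattern in the spread. In Suz12 NeuN-, the DKO contrast of Neurod2 was the 1 call with TMM factors in limma, total reads as library size, DESeq2 and loess scaling, against 0 as reported, and leaving out 1 library gave 0 to 1. The cause was not tested.

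Over whole tables, the number of called peaks depended on the setting. Ranges are over the 11 settings other than leaving out a library. In H3K4me3 NeuN+ it went from 115 in Mutyh-/- to between 68 and 506, from 122 in Ogg1-/- to between 72 and 503, and from 185 in DKO to between 93 and 716. In H3K27me3 NeuN+ the counts of 156 in Mutyh-/-, 158 in Ogg1-/- and 139 in DKO went to between 121 and 242, 108 and 218, and 83 and 196. In H3K27me3 NeuN- those of 34, 71 and 39 went to between 22 and 105, 28 and 136, and 18 and 75. In Suz12 NeuN- those of 12, 35 and 21 went to between 8 and 19, 24 and 42, and 11 and 29. Leaving out 1 library gave, for Mutyh-/-, Ogg1-/- and DKO, 89 to 279, 94 to 411 and 148 to 510 in H3K4me3 NeuN+, 131 to 267, 128 to 233 and 101 to 193 in H3K27me3 NeuN+, 25 to 66, 38 to 175 and 22 to 95 in H3K27me3 NeuN-, and 8 to 16, 23 to 38 and 16 to 26 in Suz12 NeuN-. Counts moved by over 1.5 times without a library in these cases. In H3K4me3 NeuN+ they were Mutyh-/- without DKO replicate 1 (199), WT replicate 2 (218) or Mutyh-/- replicate 3 (279), Ogg1-/- without DKO replicate 1 (224), WT replicate 1 (250), Ogg1-/- replicate 3 (335) or Ogg1-/- replicate 2 (411), and DKO without DKO replicate 3 (474) or 2 (510). In H3K27me3 they were Mutyh-/- without Mutyh-/- replicate 3 (267 in NeuN+, 66 in NeuN-), and in NeuN- Ogg1-/- without Ogg1-/- replicate 1 or 3 (38 each), WT replicate 2 (41) or Ogg1-/- replicate 2 (175), and DKO without DKO replicate 1 (22) or 2 (95). In Suz12 NeuN- it was Ogg1-/- without Ogg1-/- replicate 3 (23). Few reads per window limit all of these values.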
